A study of Mus musculus with 32 samples.

Results

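The genes described here are 9 of the 42524 genes counted in mouse spinal cord. They comprise the extracellular heparan sulfate 6-O-endosulfatases Sulf1 and Sulf2, the syndecans Sdc1, Sdc2, Sdc3 and Sdc4, the glypicans Gpc1 and Gpc4, and the perlecan gene Hspg2. They were chosen by name and function, with Sulf2 included as a proposed target of OKN-007, and no threshold on a measured value entered the rule, although earlier results of these data were known when they were chosen. RNA-seq was performed on 32 spinal cords in 8 groups of 4: WT and G93A mice, each untreated or given OKN-007, at the label times of 90 and 155 days. The G93A mice (B6-Tg(SOD1-G93A)1Gur/J) carry many copies of a mutant human SOD1 transgene on the C57BL/6J background, the WT mice were their littermates, OKN-007 (a disulfonyl phenyl nitrone) was dissolved in the drinking water, and untreated mice drank plain water. The study's methods give 95 days where the labels give 90, describe mostly female mice and treat the ages as separate cohorts, so age and cohort cannot be told apart. The labels state neither the dose of the sequenced mice, nor the cord segment, nor that the samples of a group are separate animals, which they are taken to be here. If they were not, the p-values would cover technical spread only.

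Heparan sulfate is a long sulfated sugar chain that is attached to a small set of core proteins at the cell surface and in the matrix, where its sulfate pattern decides which growth factors, chemokines and lipoproteins it can hold. Syndecans span the membrane and can be shed by proteases, glypicans are anchored to it by a lipid, and perlecan lies in basement membranes. The sulfatases work outside the cell after the chain is finished, removing 6-O-sulfate groups and so releasing or relocating ligands such as fibroblast growth factors. In the central nervous system both neurons and glia make these proteins.

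Each library held between 19701722 and 30138257 counts, with a median of 26658755, and all 9 genes were counted in every mouse. The lowest count was 43, for Sdc1, and the highest was 23628, for Sdc4. The tissue label was checked against marker lists, and neuron, motor neuron, astrocyte and oligodendrocyte markers were detected in all 32 mice. Mouse Sod1 ranged from 234 to 392 CPM over the 32 mice and does not report the human transgene, which was not analysed here. In bulk tissue, fewer cells of a type and less RNA per cell cannot be told apart.

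A few libraries stood apart. The untreated WT mouse of 90 days numbered 3 had a summed Schwann cell marker level of 1870 CPM, and the untreated G93A mouse of 90 days numbered 10 had 450 CPM, against 134 to 230 CPM in the other mice. Among untreated G93A mice of 155 days, replicate 12 carried albumin RNA at 139 CPM, and replicates 9 and 10 had almost no caudal Hox RNA, with summed levels of 4.53 and 4.24 CPM against 77.4 and 80.9 CPM in the other 2 mice of that group. Albumin also exceeded 20 CPM in OKN-007-treated G93A replicate 15 of 155 days (83.8 CPM) and, at 90 days, in OKN-007-treated WT replicate 6 (46.7 CPM) and untreated G93A replicate 11 (25.6 CPM). Without the mice over 20 CPM of albumin, 0 of the 9 genes passed for OKN-007 against untreated, as with them, and Gpc4 in treated G93A against WT mice of 155 days had an adjusted p of 0.052. The caudal Hox score, the mean log2(CPM + 1) of 6 genes that mark lumbar and sacral cord, was 3.41 ± 0.549 (SD, n = 4) in untreated WT and 1.73 ± 1.36 in untreated G93A mice of 155 days. It was 4.08 ± 0.143 in OKN-007-treated WT and 2.30 ± 0.752 in OKN-007-treated G93A mice of that age, and in the OKN-007-treated G93A mice of 90 days it was under 1 in replicates 13 (0.763) and 14 (0.656).

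The stretches upstream of the transcription start are shown for the genes on which the results turn: Sulf2, because it is the proposed target, and Sdc4 and Sdc1, because they rose most among the 7 core proteins of the 9 genes. RefSeq starts (table build GRCm38.p6) were found for 6 of the 9 genes. Capitals mark a match to the NF-kB motif on either strand, the only one of the NF-kB, STAT (TTCNNNGAA) and AP-1 (TGANTCA) motifs that was found in these windows. The printed Sulf2 window, chr2:166155684-166155933 on the minus strand, lies outside the annotated gene. Another RefSeq start of Sulf2 has its window at chr2:166155286-166155535, inside the annotated gene, which is not printed. The Sdc4 window, chr2:164443189-164443438 on the minus strand, lies in an intron of the longer GENCODE model of Sdc4. The Sdc1 stretch, chr12:8771146-8771322 on the plus strand, holds 177 bases of a window of 250. It ends where the first annotated exon of Sdc1 begins, and the 73 exon bases that follow, up to the RefSeq start, are not printed.
Sulf2: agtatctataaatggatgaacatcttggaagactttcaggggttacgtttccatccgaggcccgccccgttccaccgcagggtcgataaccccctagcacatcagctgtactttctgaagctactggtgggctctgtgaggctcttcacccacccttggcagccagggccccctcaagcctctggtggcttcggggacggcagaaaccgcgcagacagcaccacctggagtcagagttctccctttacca
Sdc4: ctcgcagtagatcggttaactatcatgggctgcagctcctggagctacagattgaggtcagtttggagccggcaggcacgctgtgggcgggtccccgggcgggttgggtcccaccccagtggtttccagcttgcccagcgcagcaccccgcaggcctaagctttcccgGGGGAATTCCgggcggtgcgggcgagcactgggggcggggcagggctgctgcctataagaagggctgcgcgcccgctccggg
Sdc1: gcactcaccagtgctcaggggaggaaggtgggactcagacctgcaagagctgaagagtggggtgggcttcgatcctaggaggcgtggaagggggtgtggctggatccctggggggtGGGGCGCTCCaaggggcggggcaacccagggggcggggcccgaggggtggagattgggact

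The NF-kB match began at position -82 of the Sdc4 start and at position -134 of the Sdc1 start, counted back from the RefSeq start. Of 32851 RefSeq windows of 250 bases, 7.25% hold such a match. The Sdc4 window also held 4 GC boxes (GGGCGG on either strand), none overlapping the NF-kB match, and 32.7% of all windows hold at least 1 GC box. No NF-kB, STAT or AP-1 match was found in the windows of Sulf2, Sdc3, Gpc4 and Hspg2, where STAT and AP-1 matches occur in 7.02% and 6.75% of all windows. A match describes letters only, and its use in these cords was not tested.

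In GENCODE release 21 on GRCm38, Sulf1 (ENSMUSG00000016918) spans chr1:12692277-12861192 on the plus strand and Sulf2 (ENSMUSG00000006800) chr2:166073089-166155663 on the minus strand. The syndecans lie apart from each other, with Sdc1 (ENSMUSG00000020592) at chr12:8771323-8793715, Sdc2 (ENSMUSG00000022261) at chr15:32920723-33034935, Sdc3 (ENSMUSG00000025743) at chr4:130792537-130826319 and Sdc4 (ENSMUSG00000017009) at chr2:164424247-164443887. Gpc1 (ENSMUSG00000034220) lies at chr1:92831645-92860779, Gpc4 (ENSMUSG00000031119) at chrX:52053021-52165252 and Hspg2 (ENSMUSG00000028763) at chr4:137468769-137570630. Counts cover the exons of each gene as a whole and do not separate its transcripts.

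Compared per transcript length, in RPKM over the annotated exons, the genes spanned more than 2 orders of magnitude. The median level over 32 mice was 90.2 RPKM for Sdc4, 39.5 for Sdc3, 22.9 for Sdc2, 22.5 for Sulf2 and 15.2 for Gpc1. It was 1.47 RPKM for Gpc4, 1.43 for Sulf1, 0.678 for Sdc1 and 0.589 for Hspg2. Sdc2 and Sulf2 are neighbours in this order whose levels overlapped in the untreated WT mice of 90 days, at 21.6 ± 1.10 and 23.1 ± 3.47 RPKM (SD, n = 4), and so are Gpc4 and Sulf1, at 1.48 ± 0.283 and 1.27 ± 0.349. Sdc1 and Hspg2 overlapped as well, and the other neighbours in the order did not overlap in that group.

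**Figure D1:**
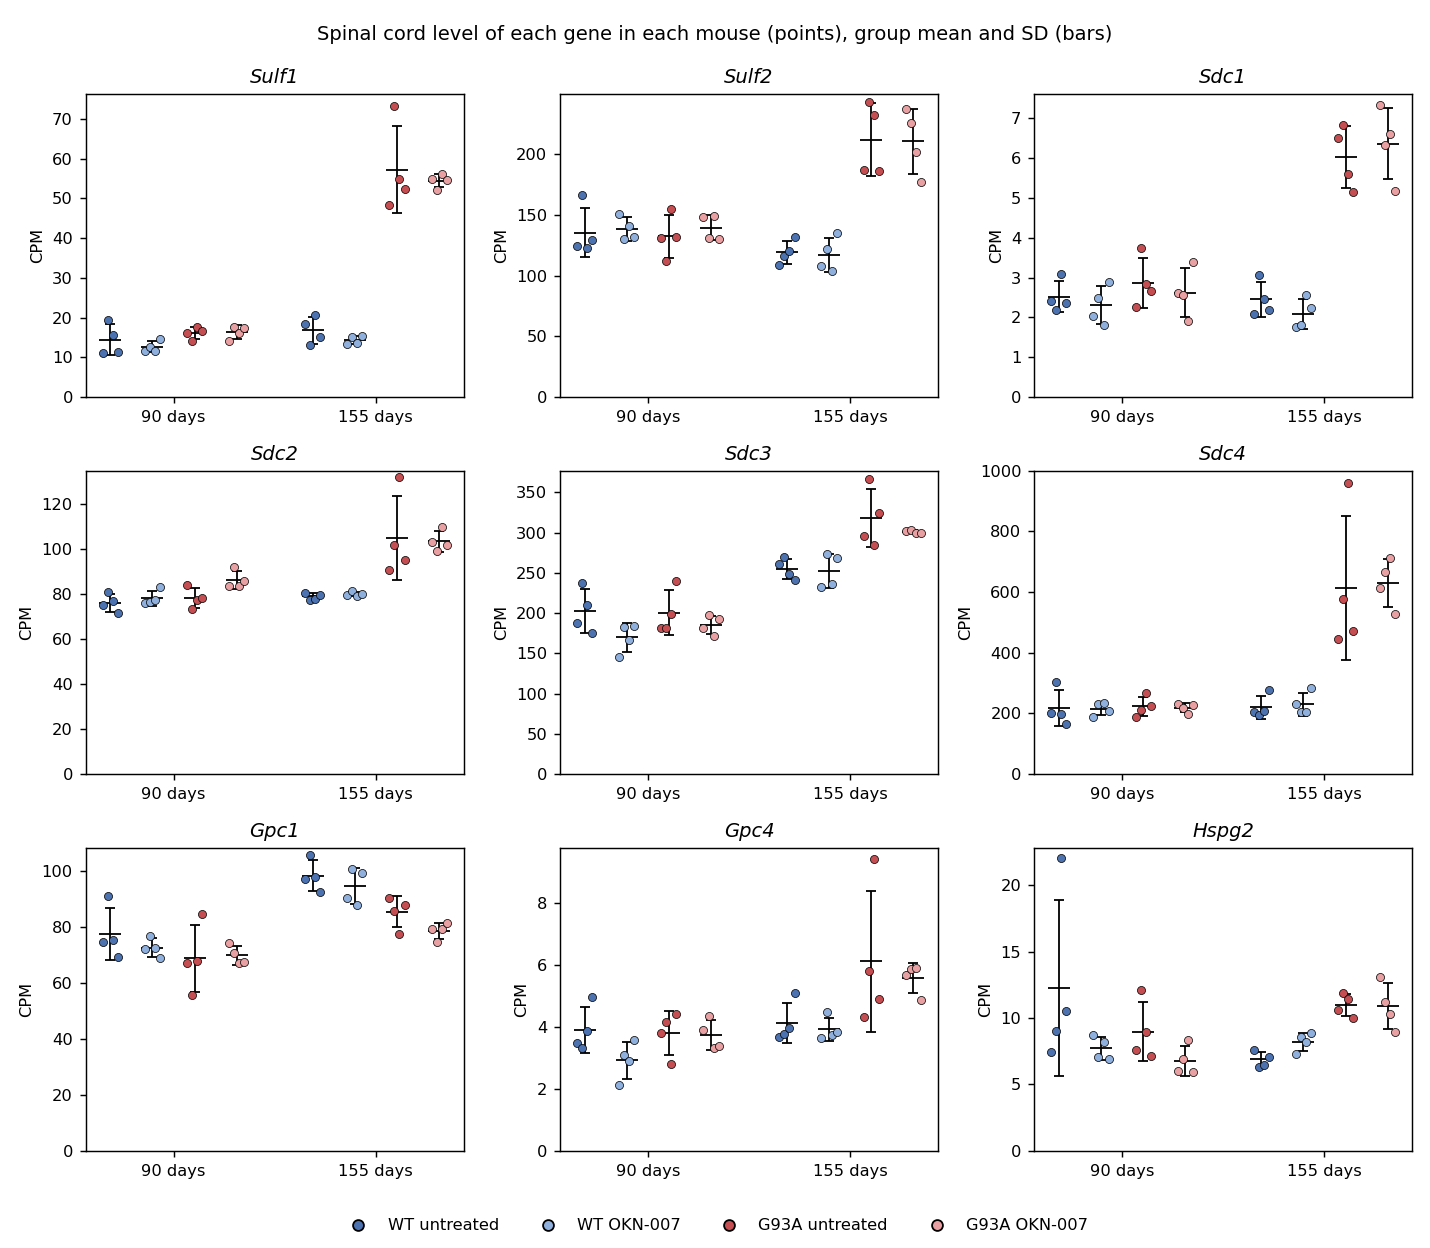
Level of each of the 9 genes in CPM (counts scaled to the effective library size, y axis from 0) in each of 32 mice, by age (x axis) and group (colour), with group means and SDs as bars. The 8 G93A mice of 155 days sit above all WT mice of that age for Sulf1, Sulf2, Sdc1, Sdc2, Sdc3, Sdc4 and Hspg2, and below them for Gpc1 within each treatment.

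To ask how the mutant transgene affected these genes late in disease, untreated G93A mice were compared with untreated WT mice at 155 days. Of the 9 genes, 8 rose, from 1.28-fold for Sdc3 to 3.53-fold for Sulf1, and none fell. Sulf1, Sdc4 and Sdc1 rose by more than 2-fold, Sulf2 by 1.83-fold, and Hspg2, Gpc4, Sdc2 and Sdc3 by less. Gpc1 went the other way without passing the test. The background was wide, with 39.5% of 18675 tested genes called at an adjusted p under 0.05 (edgeR's quasi-likelihood test, Benjamini-Hochberg over all genes tested), 21.3% as higher and 18.2% as lower. The median log2 fold change was 0.716 over the 9 genes and 0.000155 over all genes tested.

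Sulf1, one of the pair of 6-O-endosulfatases, had the largest fold. Its level was 18.3, 13, 20.6 and 15.1 CPM in the 4 untreated WT mice of 155 days and 48.4, 73.3, 55.0 and 52.5 CPM in the 4 untreated G93A mice. The lowest G93A mouse, at 48.4 CPM, lay far above the highest WT mouse, at 20.6 CPM. Sulf1 rose by 1.82 ± 0.121 (SE) on the log2 scale, or 3.53-fold (95% confidence interval 2.96 to 4.21), with an adjusted p of 1.04e-09.

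Sulf2, the other endosulfatase and the proposed OKN-007 target, was the more abundant of the pair in every mouse. Its level was 109, 116, 120 and 132 CPM in untreated WT and 187, 243, 232 and 186 CPM in untreated G93A mice of 155 days. The groups did not overlap, as was true of 15.6% of all genes tested in the upward direction. The log2 fold change was 0.87 ± 0.107 (SE), or 1.83-fold (95% confidence interval 1.57 to 2.14), with an adjusted p of 3.01e-06. Because Sulf1 rose more, the Sulf2 to Sulf1 ratio in RPKM was 14.2 ± 3.25 (SD, n = 4) in untreated WT and 7.19 ± 0.764 in untreated G93A mice, ranging from 11.2 to 17.2 and from 6.38 to 8.13.

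Among the syndecans, Sdc4, the most abundant of the family and a partner of integrins at focal adhesions, rose most in absolute level. It stood at 203, 193, 207 and 277 CPM in untreated WT and at 444, 577, 960 and 471 CPM in untreated G93A mice of 155 days. The G93A mouse at 960 CPM, replicate 11, lay far above the rest of its group, yet the lowest G93A mouse still exceeded every WT mouse. The log2 fold change was 1.52 ± 0.192 (SE), or 2.87-fold, with an adjusted p of 4.48e-06. It lay between 1.22, without G93A replicate 11, and 1.84, adjusted for the caudal Hox score, and passed the test in all 28 alternative fits, those that left out 1 mouse included.

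Sdc1, a syndecan best known from epithelia and plasma cells, was rare in cord but moved by a similar factor. Its level was 2.09, 3.07, 2.45 and 2.19 CPM in untreated WT and 6.51, 6.83, 5.61 and 5.14 CPM in untreated G93A mice of 155 days. The groups did not overlap, and the log2 fold change was 1.35 ± 0.167 (SE), or 2.54-fold, with an adjusted p of 3.77e-06. Sdc2, a syndecan of fibroblasts and of dendritic spines, rose less, from 79.0 ± 1.55 to 105 ± 18.6 CPM (SD, n = 4), with a log2 fold change of 0.455 and an adjusted p of 0.000329. Sdc3, the syndecan of axons, rose least, from 255 ± 12.6 to 318 ± 36.1 CPM, with a log2 fold change of 0.36 and an adjusted p of 0.001. For Sdc2 and Sdc3 as well, every G93A mouse lay above every WT mouse.

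The unequal changes altered the make-up of syndecan transcripts. Sdc4 accounted for 56.5 ± 4.59% (SD, n = 4) of summed syndecan RPKM in untreated WT mice of 155 days and for 72.8 ± 5.78% in untreated G93A mice. The share of Sdc3 was 28.2 ± 3.45% and 17.3 ± 4.73%, and that of Sdc2 was 14.8 ± 1.11% and 9.37 ± 1.01%. Sdc1 made up 0.427% and 0.517%. At 90 days, Sdc4 held 59.7 ± 3.89% in untreated WT and 60.5 ± 3.47% in untreated G93A mice. These shares are a description of the same values and were given no test.

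**Figure D2:**
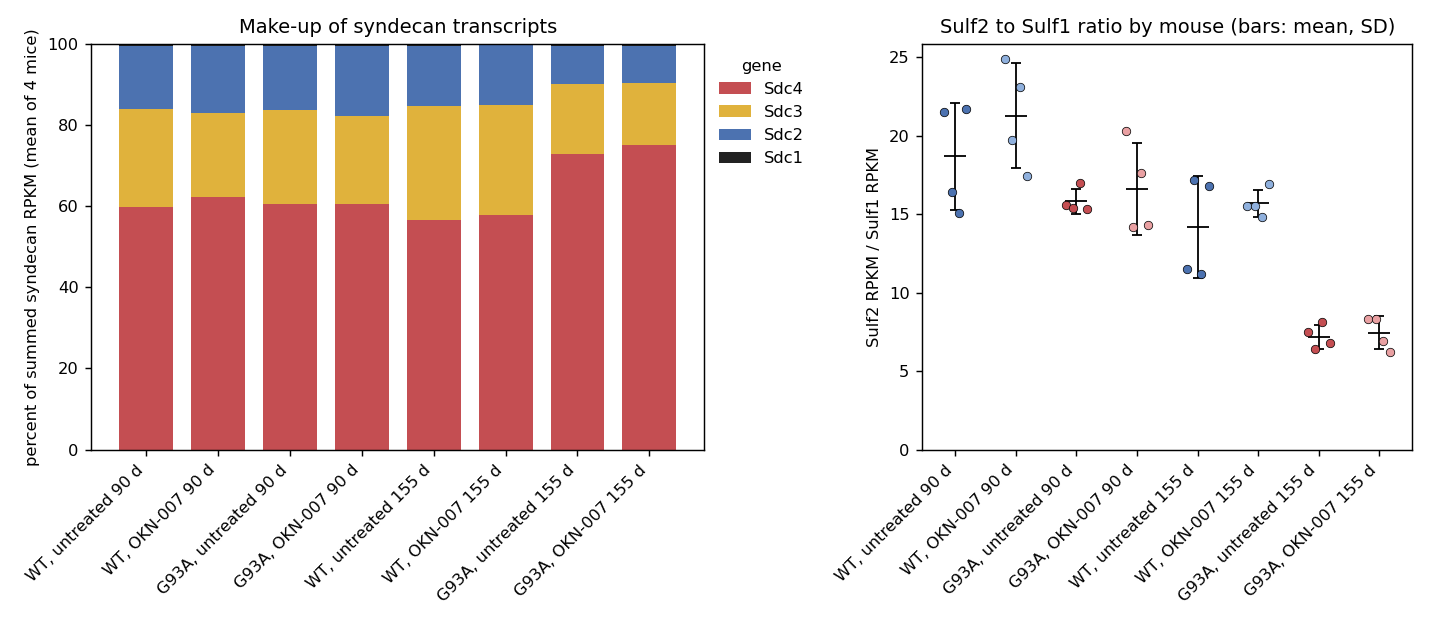
Left, share of each syndecan in the summed syndecan RPKM (y axis, percent, mean of 4 mice) in the 8 groups. Right, ratio of Sulf2 to Sulf1 RPKM in each mouse (points) with mean and SD (bars). Sdc4 takes 72.8% and 75.1% in the 2 G93A groups of 155 days and between 56.5% and 62.2% elsewhere. The Sulf2 to Sulf1 ratio is 7.19 and 7.45 in those 2 groups and between 14.2 and 21.2 in the others.

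The glypicans parted. Gpc4, a glypican that astrocytes release, stood at 3.69, 3.79, 3.96 and 5.10 CPM in untreated WT and at 4.34, 5.80, 9.43 and 4.91 CPM in untreated G93A mice of 155 days. The groups overlapped, and replicate 11 again had the highest value. The log2 fold change of Gpc4 was 0.60 ± 0.189 (SE) with an adjusted p of 0.0166, but it was 0.32 with an adjusted p of 0.0966 without G93A replicate 11 and 0.55 with an adjusted p of 0.0504 without WT replicate 1. Fitted with the 8 mice of the 2 groups alone, Gpc4 had a log2 fold change of 0.60 and an adjusted p of 0.0642.

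Gpc1, a glypican of neurons and their axons, stood at 97.4, 106, 97.9 and 92.7 CPM in untreated WT and at 90.3, 85.9, 77.6 and 88.1 CPM in untreated G93A mice of 155 days. Every G93A mouse lay below every WT mouse, as did 17.7% of all genes tested, but the log2 fold change of -0.16 ± 0.0717 (SE) had an adjusted p of 0.0925. With DESeq2 it was -0.17 with an adjusted p of 0.0477. Hspg2, which encodes perlecan, stood at 7.61, 6.34, 6.49 and 7.09 CPM in untreated WT and at 10.6, 11.9, 11.4 and 9.99 CPM in untreated G93A mice. The groups of Hspg2 did not overlap, and its log2 fold change was 0.72 ± 0.113 (SE), or 1.64-fold, with an adjusted p of 6.17e-05.

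In mice given OKN-007 the same genotype comparison at 155 days used other animals in both groups. All 9 genes passed the test, 8 higher and 1 lower, where 41.5% of all genes tested passed, 23.3% as higher and 18.2% as lower. Sulf1 rose by 2.0 ± 0.122 (SE) on the log2 scale, from 13.4, 15.1, 13.5 and 15.4 CPM in WT to 54.9, 52.2, 56.2 and 54.6 CPM in G93A mice. Sulf2 rose by 0.92 ± 0.107, from 108, 122, 104 and 135 CPM to 237, 226, 202 and 177 CPM. Neither sulfatase overlapped between genotypes, as was true of 20.2% of all genes tested in the upward direction, and the adjusted p was 2.68e-10 for Sulf1 and 1.32e-06 for Sulf2.

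Among core proteins in the treated mice, the log2 fold change was 1.68 for Sdc1, 1.52 for Sdc4, 0.44 for Sdc2 and 0.33 for Sdc3. The adjusted p of these syndecans lay between 2.1e-07 and 0.00185. Gpc4 rose by 0.58 with an adjusted p of 0.0192 and Hspg2 by 0.48 with an adjusted p of 0.00178. Gpc1 fell by 0.19 on the log2 scale, from 94.8 ± 6.45 to 78.7 ± 2.88 CPM (SD, n = 4), with an adjusted p of 0.038 and no overlap, as was true of 25.2% of genes in that direction. The calls of Gpc1 and Gpc4 rested on single mice. Gpc1 had an adjusted p of 0.109 without WT replicate 6, 0.1 without WT replicate 8, 0.0527 without G93A replicate 13 and 0.0737 without G93A replicate 14, and Gpc4 had 0.0502 without G93A replicate 14 and 0.0528 without G93A replicate 15.

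The caudal Hox score, which differed between the genotypes at 155 days, was entered as a covariate. In untreated mice 8 of the 9 genes then still passed the test. In OKN-007-treated mice 6 passed. The log2 fold change was then 0.27 ± 0.102 (SE) for Sdc3 (adjusted p = 0.0607) and 0.37 ± 0.147 for Hspg2 (adjusted p = 0.0710). For Gpc1 it was -0.25 ± 0.0968 (adjusted p = 0.0606), a larger change than the -0.192 without the score. In untreated mice the score ranged from 2.95 to 4.16 in WT and from 0.555 to 2.99 in G93A mice, so the ranges barely overlapped. In treated mice it ranged from 3.87 to 4.16 in WT and from 1.26 to 2.96 in G93A mice, without overlap. The fit can therefore hardly separate cord position from genotype in either treatment. Marker levels moved with the genotype as well. The summed level of 8 microglial markers ranged from 317 to 384 CPM in untreated WT and from 1350 to 2410 CPM in untreated G93A mice of 155 days, with 8 of 8 markers higher. The astrocyte sum ranged from 6550 to 7080 CPM and from 15000 to 18900 CPM, with 6 of 8 markers higher, and the neuron sum from 2820 to 3380 CPM and from 1620 to 2320 CPM, with 6 of 6 markers lower. Of 8 endothelial markers, 0 passed the test. The Schwann cell marker sum ranged from 134 to 151 CPM in untreated WT and from 165 to 197 CPM in untreated G93A mice. The sum of oligodendrocyte precursor markers ranged from 108 to 135 CPM and from 175 to 241 CPM, and the motor neuron sum from 267 to 334 CPM and from 155 to 175 CPM. Among the 4 untreated G93A mice, replicates 10 and 11, which were highest for Sulf2 and Sdc4, also had the highest microglial sums, at 2170 and 2410 CPM, and astrocyte sums of 18900 CPM each. The part of these marker shifts in the levels of the 9 genes was not tested.

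**Figure D3:**
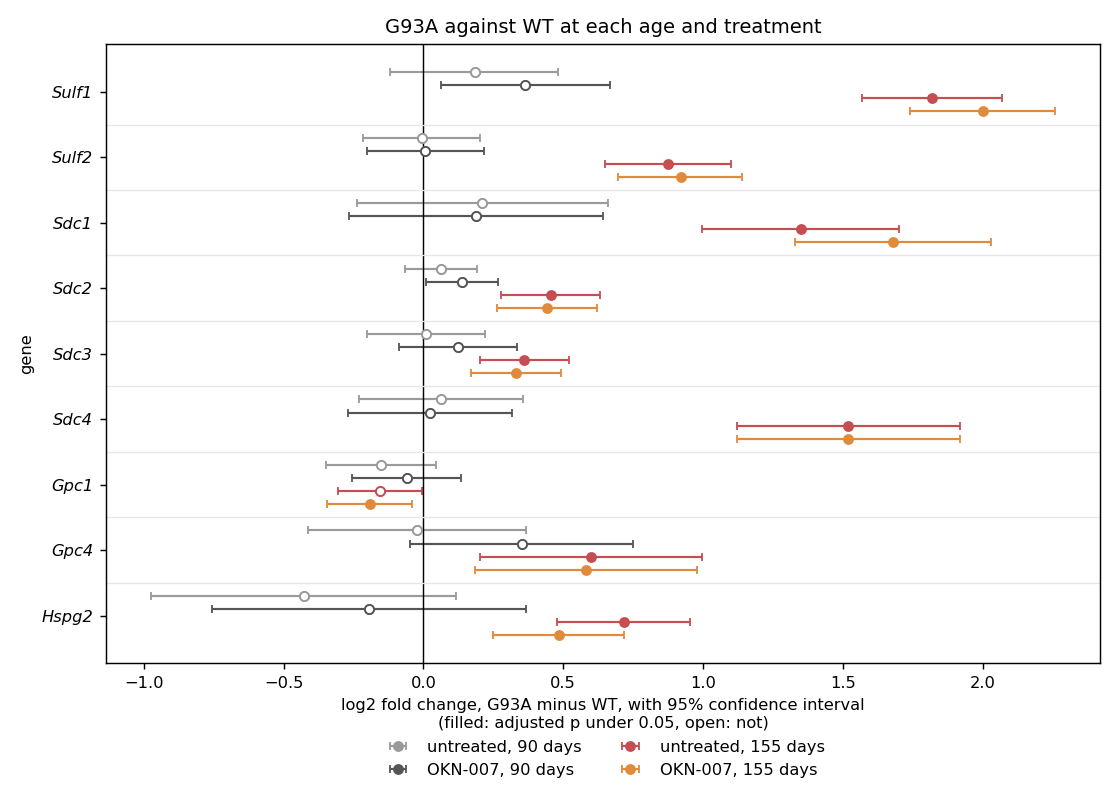
Log2 fold change of G93A against WT (x axis) for each gene (y axis) with 95% confidence intervals, by age and treatment (colour). Filled points passed an adjusted p of 0.05. The intervals at 90 days include 0 except those of Sulf1 and Sdc2 in treated mice, and those of Sulf1, Sulf2, Sdc1 and Sdc4 at 155 days lie clear of the intervals at 90 days.

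At the label time of 90 days, near disease onset in this model, the genotypes were compared in the same way. In untreated mice 0 of 9 genes passed the test, and 0% of the 18899 genes tested passed. At an unadjusted p of 0.05, 0 of 9 genes passed against 5.96% of all genes, and DESeq2 also called 0 of 9. Sulf1 stood at 14.4 ± 3.95 CPM in WT and 16.1 ± 1.5 CPM in G93A mice (SD, n = 4), and Sulf2 at 135 ± 20.4 and 133 ± 17.7 CPM. The 95% confidence interval of the G93A change ran from -13.9% to 15.1% for Sulf2 and from -14.7% to 28.1% for Sdc4.

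In OKN-007-treated mice of 90 days 0 of 9 genes passed the adjusted test, where 0% of all genes did, and 2 passed an unadjusted p of 0.05, against 3.95% of all genes. These were Sulf1, with a log2 fold change of 0.37 and an unadjusted p of 0.0209 (adjusted p = 1), and Sdc2, with 0.14 and an unadjusted p of 0.0356 (adjusted p = 1). Sdc2 stood at 75.9, 76.5, 77.3 and 83.2 CPM in WT and at 83.6, 92.1, 83.5 and 86.0 CPM in G93A mice. The 2 groups of Sdc2 did not overlap, with 83.2 and 83.5 CPM as the nearest values, as was true of 1.81% of genes tested in that direction. Averaged over both treatments, Sulf1 had a log2 fold change of 0.27 ± 0.102 (SE) at 90 days with an adjusted p of 0.606, while 5 of 18899 genes (0.0265%) passed, and 2 of the 9, Sulf1 and Sdc2, passed an unadjusted p of 0.05, against 6.61% of all genes.

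Whether the genotype change itself differed between the ages was tested in a fit of all 32 mice. In untreated mice it was larger at 155 than at 90 days for 6 of the 9 genes, where 21.2% of 19829 genes passed and 12.9% did so in that direction. The difference was 1.63 on the log2 scale for Sulf1 (adjusted p = 3.33e-07), 1.45 for Sdc4 (0.000101) and 0.87 for Sulf2 (8.43e-05). It was 1.12 for Sdc1, 1.13 for Hspg2 and 0.38 for Sdc2. For Hspg2 it was 0.685 (adjusted p = 0.0227) without the untreated WT mouse of 90 days numbered 3, the one with 1870 CPM of Schwann cell markers. The adjusted p was 0.0705 for Sdc3, 0.108 for Gpc4 and 0.932 for Gpc1. In OKN-007-treated mice 4 of the 9 passed, Sulf1, Sulf2, Sdc1 and Sdc4, where 23% of genes passed and 13% did so in that direction.

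Age was then followed within each genotype and treatment. The comparisons below and the age differences above share their mice. Cell type marker levels differed between the ages as well. In untreated WT mice the summed level of 6 oligodendrocyte markers ranged from 18100 to 21400 CPM at 90 days and from 10800 to 13700 CPM at 155 days. The other groups shifted the same way, and the part of this shift in the age changes was not tested. In untreated WT mice, Sdc3 rose from 203 ± 27.3 CPM at 90 days to 255 ± 12.6 CPM at 155 days and Gpc1 from 77.6 ± 9.32 to 98.4 ± 5.42 CPM (SD, n = 4). The log2 fold change was 0.34 for Sdc3 (adjusted p = 0.00898) and 0.35 for Gpc1 (adjusted p = 0.00411), where 24.9% of all genes passed, 15.3% as higher and 9.61% as lower. Without replicate 4 of the younger group the adjusted p was 0.0960 for Sdc3 and 0.0504 for Gpc1. The sulfatases gave values in the opposite direction to each other in untreated WT mice, with log2 fold changes of 0.22 for Sulf1 (adjusted p = 0.262) and -0.17 for Sulf2 (adjusted p = 0.256). Without the younger replicate 2, Sulf1 had a log2 fold change of 0.41 and an adjusted p of 0.0239.

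Hspg2 fell with age in untreated WT mice, by 0.82 on the log2 scale with an adjusted p of 0.00526, and this value rested on 1 library. Its level was 7.42, 9.03, 22 and 10.5 CPM in the younger and 7.61, 6.34, 6.49 and 7.09 CPM in the older mice. The mouse at 22 CPM, replicate 3, is the one with 1870 CPM of Schwann cell markers, and its fibroblast marker sum was 173 CPM against 48.1 to 51.8 CPM in the other 3 mice. Without it the log2 fold change of Hspg2 was -0.37 with an adjusted p of 0.0948. Without both mice that had a Schwann sum over 300 CPM, it was -0.37 with an adjusted p of 0.0488. Whether peripheral nerve RNA set the value of Hspg2 in that mouse was not tested.

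In OKN-007-treated WT mice, 2 of 9 genes rose with age, where 31.3% of all genes passed and 17.8% did so in that direction. The share that rose was near the background. The caudal Hox score did not overlap between the ages, at 1.2 to 2.69 at 90 days and 3.87 to 4.16 at 155 days. Of 6 caudal Hox genes 3 were called higher. Sdc3 and Gpc1 still passed with the score as a covariate, but the fit can hardly separate cord position from age in these groups. Sdc3 went from 145, 183, 167 and 184 CPM to 232, 273, 236 and 268 CPM, a log2 fold change of 0.56 (adjusted p = 8.24e-05) with no overlap, as for 18.8% of genes in that direction. Gpc1 went from 72.7 ± 3.28 to 94.8 ± 6.45 CPM, a log2 fold change of 0.37 (adjusted p = 0.00188). Sulf2 had a log2 fold change of -0.25 with an adjusted p of 0.0746, which was 0.0357 with DESeq2.

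In G93A mice 8 of the 9 genes were higher at 155 than at 90 days in each treatment, where 33.7% of all genes passed in untreated mice (21% as higher) and 32.9% in OKN-007-treated mice (19.8% as higher). Sulf1 rose by 1.85 on the log2 scale in untreated and by 1.77 in treated G93A mice, and Sdc4 by 1.48 and 1.56. Sulf2 rose by 0.70 and 0.63, Sdc1 by 1.09 and 1.31, and Sdc3 by 0.68 and 0.74. Hspg2 was the untreated exception, with a log2 fold change of 0.31 and an adjusted p of 0.262, which became 0.51 with an adjusted p of 0.0046 without the 2 mice of high Schwann marker level. Gpc1 was the treated exception, with a log2 fold change of 0.21 and an adjusted p of 0.0688. At 85.5 ± 5.54 CPM (SD, n = 4), Gpc1 in untreated G93A mice of 155 days stood between the younger and the older untreated WT mice, at 77.6 and 98.4 CPM.

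The treatment comparison asked whether OKN-007 changed the level of its proposed target or of the other genes. In G93A mice of 155 days, 0 of the 9 genes passed the test, and 0% of 18675 genes did. Sulf2 stood at 187, 243, 232 and 186 CPM in untreated and at 237, 226, 202 and 177 CPM in OKN-007-treated G93A mice. The groups covered nearly the same range. The change had a 95% confidence interval from -14.2% to 16.6% (log2 fold change -0.000279, SE 0.106, adjusted p = 1). At an unadjusted p of 0.05, 0 of 9 genes passed against 4.04% of all genes, and DESeq2 called 0 of 9.

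In WT mice of 155 days the 95% confidence interval of the Sulf2 change ran from -17.1% to 12.9%, around a log2 fold change of -0.05, and 0 of the 9 genes passed, at an unadjusted p of 0.05 (2.94% of all genes) as after adjustment (0%). In the mice of 90 days it ran from -10% to 20.3% in G93A and from -10.9% to 19.1% in WT mice. Averaged over both genotypes and ages, the log2 fold change of Sulf2 was 0.01 ± 0.0537 (SE), with an interval from -6.49% to 8.84%. In that average 0 of the 9 genes passed the adjusted test, as did 0% of 19829 genes, and 1 of 9, Sdc3, passed an unadjusted p of 0.05, as did 10.8% of all genes. These data therefore leave room for a change of Sulf2 transcript within those bounds. They hold no measure of sulfatase protein or activity.

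Sulf1 stood at 48.4 to 73.3 CPM in untreated and at 52.2 to 56.2 CPM in treated G93A mice of 155 days. Its change with OKN-007 had an interval from -18.9% to 13.1%. For Sdc4 the interval in the same mice was wider, from -21.3% to 35.6%, around 613 ± 238 and 629 ± 79.5 CPM (SD, n = 4). Sdc3 had the tightest treated group, at 300, 300, 302 and 303 CPM, against 285 to 366 CPM in untreated G93A mice. The genotype by OKN-007 interaction at 155 days passed for 0 of 9 genes after adjustment (0% of all genes) and at an unadjusted p of 0.05 (2.34% of all genes), and its log2 value for Sulf2 was 0.05 ± 0.150 (SE, adjusted p = 1).

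**Figure D4:**
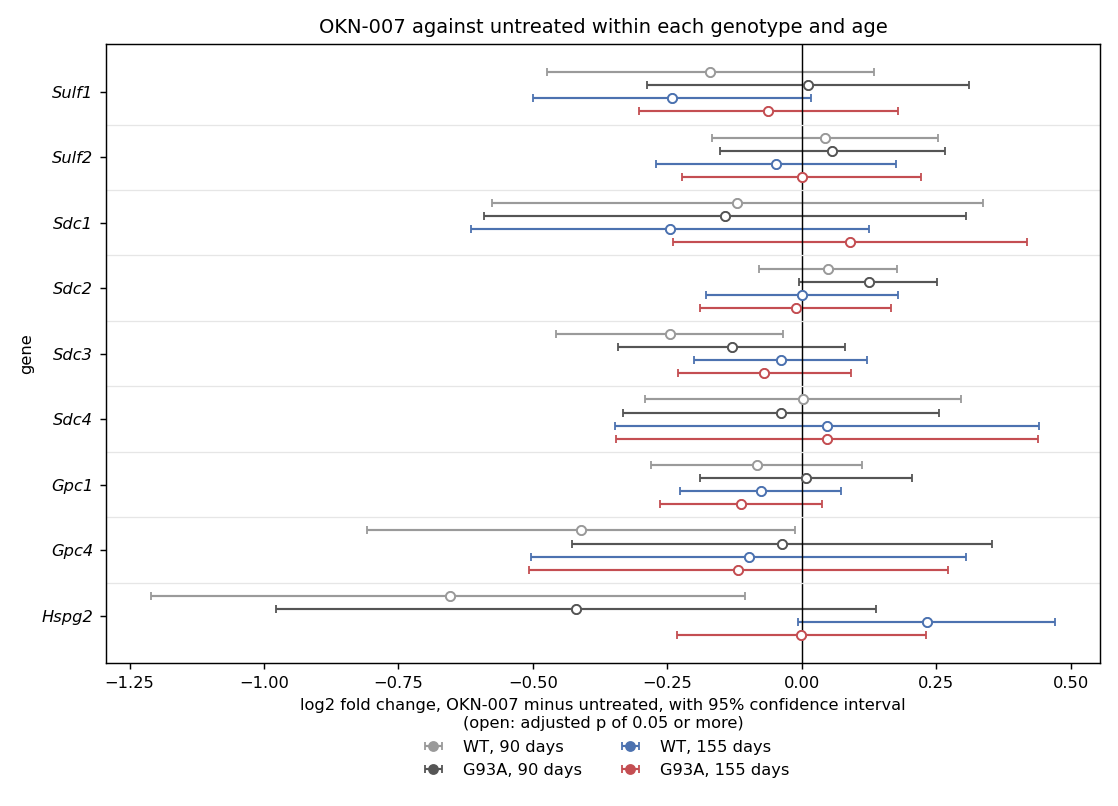
Log2 fold change of OKN-007-treated against untreated mice (x axis) for each gene (y axis) with 95% confidence intervals, within each genotype and age (colour). Open points did not pass an adjusted p of 0.05. No point is filled, the Sulf2 values lie between -0.05 and 0.06, and the widest intervals belong to Hspg2 at 90 days.

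At 90 days 0 of 9 genes and 0% of 18899 genes passed for OKN-007 in either genotype. At an unadjusted p of 0.05, 0 of 9 passed in G93A mice (5.56% of all genes). In WT mice 3 of 9 passed (4.07% of all genes), all with lower values in treated mice, and each had an adjusted p of 0.993. Sdc3 stood at 188, 237, 210 and 175 CPM in untreated and at 145, 183, 167 and 184 CPM in treated WT mice. Gpc4 had a log2 fold change of -0.41 and Hspg2 one of -0.655. For Hspg2 the untreated WT replicate 3 again set the size, since without the 2 mice of high Schwann marker level its log2 fold change was -0.21. Averaged over genotypes and ages, Sdc3 had a log2 fold change of -0.12 ± 0.0476 (SE) with OKN-007 and an adjusted p of 0.375, the lowest of the 9 genes in that comparison.

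The other genes of the heparan sulfate pathway are given from lists of named genes, counted in the comparison of untreated G93A with untreated WT mice at 155 days. Each count is to be read against the 21.3% of all genes called higher and the 18.2% called lower in that comparison. Of 11 other core proteins 2 rose and 4 fell, with a median log2 fold change of 0.01, so that the share that rose was near the background. Serglycin (Srgn), the core protein of haematopoietic granules, rose by 1.75, and Tgfbr3, the betaglycan receptor, by 0.30. The testican genes Spock3, Spock2 and Spock1 fell by 0.74, 0.72 and 0.43 on the log2 scale and Gpc5 fell by 0.31. Agrn, which encodes the core protein agrin of the neuromuscular junction, had a log2 fold change of 0.01 and did not pass.

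Among 11 genes that start and lengthen the chain, 3 rose and 3 fell, against 21.3% and 18.2% of all genes, with changes between -0.51 for Extl2 and 0.36 for Extl3. Among 15 tested sulfotransferases and the epimerase, 4 rose and 8 fell (all genes 21.3% and 18.2%), with a median of -0.40. Ndst1, the N-deacetylase and N-sulfotransferase that opens chain modification, rose from 82.4 to 153 CPM (log2 fold change 0.93), and Hs3st3b1, a 3-O-sulfotransferase, by 0.98. Those that fell included Ndst4 (-1.19) and Hs3st2 (-0.97). The 6-O-sulfotransferases, which add the groups that Sulf1 and Sulf2 remove, had log2 fold changes of -0.65 for Hs6st2 (adjusted p = 0.000147), -0.97 for Hs6st3 (adjusted p = 0.0118) and -0.14 for Hs6st1, which did not pass. Of the 3 genes of this step that were tested, 2 fell, where 18.2% of all genes did. Hs6st1 was named after its value was seen. Hs6st3 was rare, its mean falling from 2.08 to 1.01 CPM. The mean of Hs6st2 fell from 85.2 to 52.2 CPM, and that of Hs6st1 went from 66.5 to 58.4 CPM. The net effect on 6-O-sulfate groups of the chain was not tested. When the caudal Hox score entered the fit, 2 sulfotransferase genes in place of 4 were called higher, and 1 chain-building gene in place of 3 was called higher and 1 in place of 3 lower.

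Of 12 genes linked to heparan sulfate breakdown 8 rose and 2 fell, where 21.3% and 18.2% of all genes did, with a median of 0.54 against 0.000155 over all genes. Heparanase (Hpse), which cuts the chain outside the cell, went from 0.321 ± 0.150 to 3.18 ± 1.07 CPM (SD, n = 4, adjusted p = 1.7e-07). The lysosomal enzymes Gusb and Naglu rose by 2.14 and 1.85 on the log2 scale. The 8 that rose include Sumf1 (0.76) and Sumf2 (0.51), which are not enzymes of the breakdown itself. The product of Sumf1 acts on the sulfatase active site in the endoplasmic reticulum. Ids and Hgsnat fell by 0.455 and 0.31. Several of these enzymes are made by microglia, whose marker sums moved with the genotype as given above. The part of that shift in the levels of these enzymes was not tested.

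Of 10 tested proteases and inhibitors linked to shedding of core proteins, 6 rose and 2 fell, against 21.3% and 18.2% of all genes. Timp1, an inhibitor of matrix metalloproteinases, was listed at 0.0389 to 0.341 CPM in untreated WT and at 11.4 to 27.3 CPM in untreated G93A mice of 155 days. Mmp2, Mmp14 and Adam17, which encode proteases, rose by 1.14, 0.95 and 0.755, while Mmp9 fell by 1.61 on the log2 scale, from 8.91 to 2.82 CPM. Bace1 fell by 0.22. Mmp9 is also on the motor neuron marker list, whose sum was lower in untreated G93A than in untreated WT mice, as given above. The part of that shift in the level of Mmp9 was not tested.

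Of 21 ligands that bind heparan sulfate 7 rose and 8 fell, against 21.3% and 18.2% of all genes. Apoe rose from 3160 to 17000 CPM, Fgf2 by 2.47, Hgf by 2.33 and Hbegf by 2.29 on the log2 scale. Slit2, Shh, Fgf9 and Slit3 fell by 0.84, 0.79, 0.76 and 0.65. Of 15 receptors that use heparan sulfate 7 rose and 3 fell, the latter near the background of 18.2%, led by Cxcr4 (2.08) and Met (2.02), the receptor for Hgf, with Nrp1 (0.82) and Lrp1 (0.59) after them, while Robo1, Ret and Robo2 fell by 0.37, 0.33 and 0.32. Of 8 intracellular partners of syndecans and glypicans 3 rose (Actn4, Sdcbp and Prkca, by 0.57, 0.395 and 0.24) and 2 fell (Tiam1 and Cask, by 0.55 and 0.18), against 21.3% and 18.2% of all genes.

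**Figure D5:**
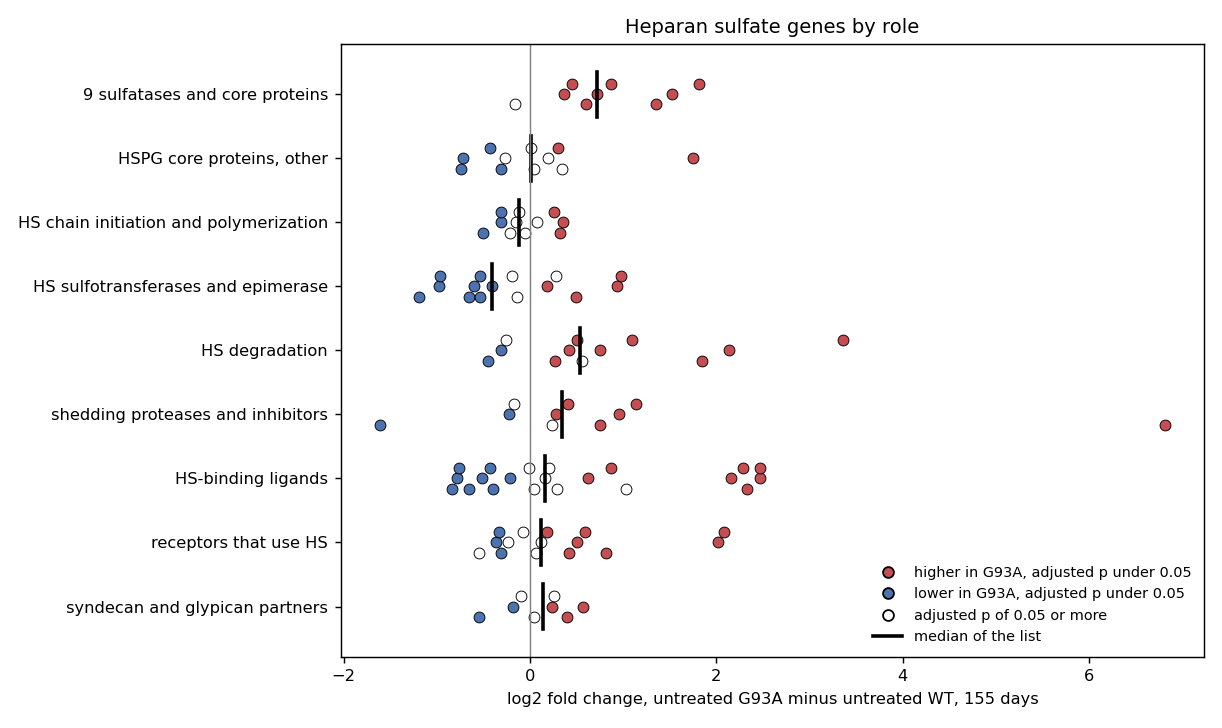
Log2 fold change of untreated G93A against untreated WT mice of 155 days (x axis) for each tested gene of 9 lists by role (y axis), with the list median as a bar. Red and blue points passed an adjusted p of 0.05. The medians run from -0.40 for the sulfotransferases to 0.54 for breakdown and 0.716 for the 9 sulfatases and core proteins, and the rightmost point is Timp1, whose fitted value depends on the few counts of its WT mice.

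None of these pathway genes passed edgeR's quasi-likelihood test after adjustment in any OKN-007 comparison or interaction, out of 103 tested at 155 days and 102 at 90 days. At 155 days in G93A mice 3 of the 103 had an unadjusted p under 0.05, against 4.04% of all genes. Hpse stood at 4.45 ± 1.07 CPM in treated against 3.18 ± 1.07 CPM in untreated G93A mice, with an adjusted p of 1.

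How the genes vary from mouse to mouse was described after subtracting each group's mean log2 CPM, over 32 mice and 15516 genes, with depth, dissection and cell makeup shared by the points. Sdc4 was most like Fam107a (Pearson r = 0.930), Mcl1 (0.917) and F3 (0.909). Sdc2 was most like Plpp3 (0.868), Lrrc58 (0.866) and Ttyh1 (0.856), and Sdc3 most like Tnip1 (0.862), Med16 (0.862) and Lrrc59 (0.860). Gpc1 was most like Tspan5 (0.911), Git1 (0.861) and Gatad2a (0.848). For Hspg2 the nearest genes were Tgfbi (0.879), Pmp22 and Ncmap (0.825), and the latter 2 belong to the Schwann cell marker list. These r include the untreated WT mouse of 90 days numbered 3, with 22 CPM of Hspg2 and 1870 CPM of Schwann cell markers. A single such mouse can set an r of this kind, and r without it was not computed.

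Sulf1 was most like Mlec (0.823), Jam2 (0.792) and Fam91a1 (0.778), and Sulf2 most like Gpsm1 (0.791), Arhgap39 (0.769) and Znfx1 (0.764). Nearest to Sdc1 were Serf1 (0.794), Zfp808 (0.697) and Pycrl (0.682), and nearest to Gpc4 were Gm9925 (0.726), Matn2 (0.718) and Serpinb1b (0.717). Between the 9 genes the highest r were 0.689 for Sdc3 with Gpc1, 0.649 for Sdc2 with Sdc4, 0.620 for Sulf1 with Sdc3 and 0.613 for Sulf2 with Sdc4. The 2 sulfatases had an r of 0.388 with each other. Sdc4, Sdc2 and Gpc4 were all highest of their group in untreated G93A replicate 11 of 155 days, at 960, 132 and 9.43 CPM. That mouse can weigh on every r given for these genes, and r without it was not computed.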

How the data were processed

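RNA of mouse spinal cord was sequenced in 32 mice. The deposited table holds raw counts per Ensembl gene, which the authors made from stranded mRNA libraries and did not normalise. The sources disagree on how. The methods name Trimmomatic, STAR, HTSeq and GENCODE release 10 on GRCm38, and the submitters' processing notes name FastQC, STAR, featureCounts, edgeR, GRCm39, mm39 and hg38, with no versions given. The table holds 1306 gene IDs above the highest of GENCODE release 21, so it was not counted on release 10. Coordinates and exon lengths printed here come from release 21 on GRCm38 and may differ from the annotation that was counted. Of 42524 IDs, 41203 (96.9%) had a symbol. The table has 0 columns that belong to no sample. Samples were grouped by the labels for strain, treatment and time.

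CPM were computed with TMM factors, and RPKM divide these by the summed exon length. Differences were tested in R 4.3.3 with edgeR 4.0.16 (filterByExpr, glmQLFit, glmQLFTest, two-sided), within each age over its 16 mice as 4 groups, and over all 32 mice as 8 groups for age. A gene was called at an adjusted p under 0.05 (Benjamini-Hochberg over all genes tested). Intervals are at 95%. No pair of libraries of a group was close enough to be 1 library deposited in duplicate (chi-square per gene of at least 3.57 over 48 pairs). On simulated data for the untreated comparison at 155 days (18422 genes), 57.6% of 1.5-fold, 72.7% of 2-fold and 95.4% of 4-fold changes were recovered and 6.33% of calls were false. Only 66, 66 and 65 tested genes were changed by these folds, in 1 group, while 39.5% of genes were called in the real comparison. The rates may therefore not carry over to it.

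The members and all gene lists were chosen with earlier results of these data known. Named pathway genes were up to 4 of the largest and 4 of the smallest log2 fold changes among called genes of each list, untreated at 155 days, plus any list gene called for OKN-007, and 1 gene that the rule named is not reported here. Agrn, Hs6st1, Sumf1 and Sumf2 were named in addition, after their values were seen. The 3 most alike genes had a mean of at least 1 CPM, with a prior count of 2 in log2 CPM. Alternatives were DESeq2 1.42.0, the likelihood ratio test, RLE factors, other count filters and thresholds, other sets of mice, a caudal Hox covariate and a replicate block. Intervals cover replicate spread. Values of the 9 members rest on 43 counts or more per mouse, while those of rare pathway genes such as Timp1, Hpse and Hgf rest on few counts in WT mice.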

Additional observations from a re-analysis of the deposited data

Results flagged for a closer look

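One value lay apart within its group: Sulf2 in the untreated WT mouse of 90 days numbered 2 was 166 CPM, and the next highest of the group was 129 CPM. The gap was 0.87 of the group's range, above Dixon's critical value for 4 samples at the level of 95%. It was the only such value in 72 groups of 4, where chance would give about 3.6.

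The G93A change differed between 155 and 90 days by a test of the difference itself (edgeR's quasi-likelihood test, all 32 mice). In untreated mice the difference in log2 fold change was 1.63 for Sulf1 (adjusted p = 3.33e-07), 0.868 for Sulf2 (8.43e-05) and 1.12 for Sdc1 (0.00267). It was 0.378 for Sdc2 (0.00954), 1.45 for Sdc4 (0.000101) and 1.13 for Hspg2 (0.00626), and the value for Hspg2 was 0.69 (adjusted p = 0.0227) without the untreated WT mouse of 90 days numbered 3. In OKN-007-treated mice it was 1.60 for Sulf1 (adjusted p = 4e-07), 0.881 for Sulf2 (6.58e-05), 1.46 for Sdc1 (0.000162) and 1.47 for Sdc4 (8.29e-05). Ages came from separate cohorts, so age and cohort cannot be told apart.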

How the results depend on the processing

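Counts of members called stayed within 1.5 times their value under DESeq2, the likelihood ratio test, RLE factors, other count filters, the caudal Hox covariate and the sets of mice left out together (those with over 20 CPM of Alb, and, chosen after seeing the data, those with a caudal Hox score under 1 or a Schwann marker sum over 300 CPM). Requiring a log2 fold change of at least 1 left 3 members called in G93A against WT at 155 days, untreated, treated and averaged, and 3 in 155 against 90 days in G93A mice of either treatment, and it left 0 in WT mice of either treatment. No call reversed. Over all genes, DESeq2 called 16 for the genotype at 90 days in untreated mice and 41 for OKN-007 averaged over genotypes and ages, where edgeR called 0, and no member was among them. Leaving out 1 mouse at a time gave 7 to 8 members called in untreated, 7 to 9 in treated and 9 to 9 in averaged mice for the genotype at 155 days, and 0 to 0 for the genotype at 90 days and for all OKN-007 comparisons and interactions. For 155 against 90 days it gave 1 to 4 in WT untreated, 2 to 3 in WT OKN-007, 7 to 8 in G93A untreated and 8 to 9 in G93A OKN-007 mice, and for the age difference 6 to 8 untreated and 4 to 5 treated. The lowest value in WT untreated mice came without the younger replicate 4. Within an age no groups share replicate numbers. Across ages a replicate block gave 3, 2, 8 and 9 members called for 155 against 90 days in the same order of groups, and 7 and 4 for the age difference, with Sdc3 (0.33, adjusted p = 0.0438) and Gpc1 in treated G93A mice (0.21, adjusted p = 0.0466) called in addition. Same-numbered mice did not deviate together (r from -0.227 to 0.289, over 0.1 in 3 of 16 pairs), so the numbers were taken as names. The OKN-007 effect averaged over ages could not be estimated under the block. TMM, RLE and library-size scaling gave median log2 changes over all genes of 0.000155, -0.0141 and -0.0118. With 4 mice a group, 57.6% of 1.5-fold changes were recovered on simulated data in which few genes were changed. Sdc1, Gpc4 and Hspg2 rested on at most 218, 232 and 586 counts a mouse.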
